A study of Rattus norvegicus with 24 samples.

Results

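The inner medulla of the rat kidney was compared between a diet low in Na and a diet with more Na, over every gene with enough counts to be tested. The comparison rests on 8 of the 24 libraries of the series, 4 from rats on low salt and 4 from rats on high salt, and 18449 of the 36856 genes in the count table passed the count filter. The rats were Sprague-Dawley rats of 120 to 200 g kept on synthetic chow for 7 days, which held 0.01 to 0.02% Na for the low-salt group and 0.4% Na for the high-salt group. The 0.4% diet is called high salt in the sample titles and a control diet in the protocol. No drug or hormone was given in either group. RNA came from the dissected papilla of 1 kidney, the tip of the inner medulla, so each library mixes all its cell types, and in such bulk samples fewer cells of a type and less RNA per cell cannot be told apart. Batch 1 holds replicates 1 and 2 of each diet, batch 2 the others, and the labels do not say what a batch was. Heart ventricle of rats on the same diets, and the same kidney tissue of rats on 0.4% Na with or without an aldosterone minipump (12 µg per day), served only to test where the response differed.

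The protocol names female rats. In the 8 kidney libraries of the diet experiment Xist, the RNA of the inactive X chromosome, reached at most 0.0918 CPM. There 4 Y-linked genes together held 210 to 276 CPM, the pattern of males. CPM are counts scaled to the library's total. Those of Xist, the Y-linked genes and the marker sums use plain totals, and all other CPM follow TMM normalisation. The heart libraries had the same pattern, and the 8 libraries of the aldosterone experiment held 234.4 to 451 CPM of Xist and at most 0.315 CPM of the Y-linked genes. Both diet groups thus share 1 pattern, and the pattern differs only towards the aldosterone experiment. Totals ran from 34013090 to 38318489 counts on high salt and from 30830077 to 32754918 on low salt, without overlap. Ribosomal RNA took 0.754 to 1.16% of the counts, and globin genes 0.0365 to 0.522%. The papilla was recognisable by Aqp2, the water channel of collecting duct principal cells, at 4214 to 7198 CPM, and by the urea transporter gene Slc14a2 at 891 to 2437 CPM. Umod, the marker of the thick ascending limb outside the inner medulla, was present at 545 to 1343 CPM.

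Cells of the inner medulla live in a salty, urea-rich and poorly oxygenated fluid. They store organic osmolytes such as sorbitol, betaine and inositol under the control of the transcription factor NFAT5, and they recover the last Na from the urine through the epithelial Na channel ENaC, which aldosterone stimulates. On a low-Na diet plasma aldosterone rises. Collecting ducts set water and urea permeability through vasopressin and cyclic AMP, and the tissue makes prostaglandins and carries defences against oxidants.

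Low salt was followed by 201 higher and 253 lower genes (edgeR quasi-likelihood test, Benjamini-Hochberg adjusted p under 0.05), 1.09% and 1.37% of those tested. At an unadjusted p under 0.05 the counts were 1657 and 1964, and 49.3% of all tested genes had a positive log2 fold change, with a median of -0.0035. Most changes were modest: the median log2 fold change was 0.58 among the higher genes and -0.52 among the lower ones, and 40 and 44 genes moved at least 2-fold. Protein-coding genes made up 188 of the higher and 245 of the lower genes, and long noncoding RNAs 12 and 8, out of 3083 tested. These genes were chosen by their difference, and as a description the 253 lower ones together fell from 45330 to 26508 CPM, and the 201 higher ones together went from 16345 to 24659 CPM. Over all genes, 4.83% had all 4 low-salt values above all 4 high-salt values, and 6.62% had all 4 below.

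**Figure D1:**
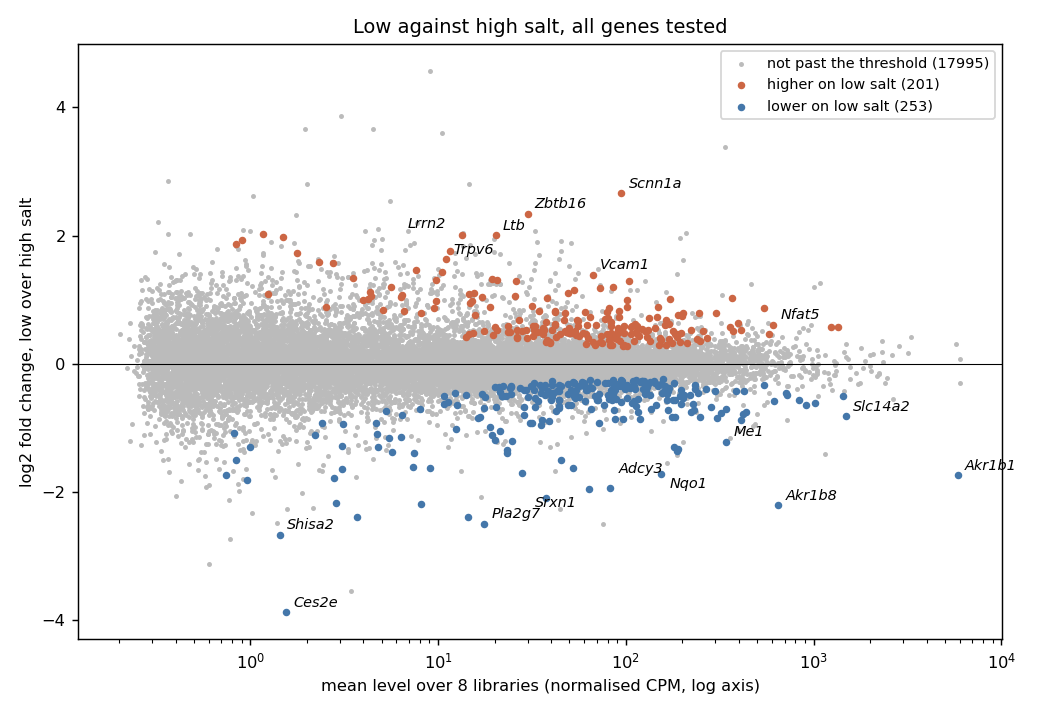
Each point is 1 of the 18449 genes tested, with its mean level over the 8 libraries (normalised CPM, log axis) against its log2 fold change, low over high salt; orange marks the 201 higher genes, blue the 253 lower ones and grey the rest. Akr1b1 lies apart at the right as an abundant gene with a large decrease, and Scnn1a and Zbtb16 lie high among the orange points. Grey points can lie higher, as Ccl20 does at 3.66.

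How many genes passed depended on single libraries. All 454 kept their direction when any of the 8 libraries was left out, but 134 passed in none of these 8 fits and only Scnn1a and Zbtb16 passed in all 8. The fewest calls, 2 higher and 0 lower, came from the fit that dropped low-salt replicate 3. Dropping replicate 1, 2, 3 or 4 of the high-salt group gave 36 and 34, 15 and 9, 22 and 16, or 141 and 171 calls (higher and lower). Dropping replicate 1, 2 or 4 of the low-salt group gave 295 and 128, 100 and 63, or 45 and 39. Of the 295 higher genes without low-salt replicate 1, 108 were among the 201. Of the 99 called genes named by rule, 18 passed in 7 or more fits. Low-salt replicate 3 was the library whose removal cost 16 of these 18 genes their call, at adjusted p-values of 0.0501 to 0.0648 in edgeR. Another 22 of the 99 passed in none, among them Nqo1, Cd40, Eno1, Mt2A, Gadd45a, Ptgds, Pgr, Tyms, Hdac4 and Dnmt3a.

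**Figure D2:**
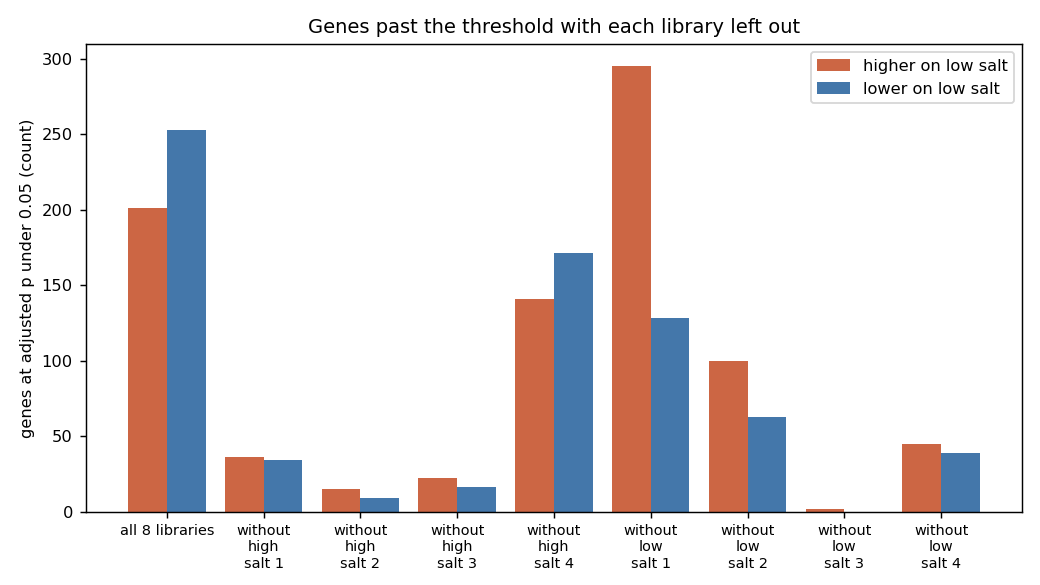
Bars give the count of genes at an adjusted p under 0.05 that were higher (orange) or lower (blue) on low salt, with all 8 libraries and with each library left out in turn. The counts run from 2 higher and 0 lower genes without low-salt replicate 3 to 295 higher genes without low-salt replicate 1.

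Scnn1a, which encodes the alpha subunit of ENaC, had the largest fold of the 201 higher genes. The 4 high-salt libraries held 33.4, 20.1, 27.3 and 20.8 CPM, in the order of replicates 1 to 4 that is kept throughout, and the low-salt libraries 247, 150.0, 106 and 154 CPM. Every low-salt value was more than 3 times the highest high-salt value, with replicate 1 the highest, and the log2 fold change was 2.66 ± 0.25 (SE; edgeR, adjusted p 0.0103, Benjamini-Hochberg). The partner subunits had no overlap between diets either but did not pass: Scnn1b, the beta subunit, stood at 33.5, 37.0, 45.2 and 36.1 CPM on high and 96.9, 52.4, 58.3 and 74.6 CPM on low salt (adjusted p 0.0561). Scnn1g, the gamma subunit, had a smaller difference, with a log2 fold change of 0.54 ± 0.13 (adjusted p 0.0662).

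Of 22 tested genes of ENaC and its regulators 1 passed, Scnn1a, and the list's median log2 fold change was 0.13, against -0.0035 over all genes. In 6 of the 22 all low-salt values lay above all high-salt values, where 4.83% of all genes did. Without low-salt replicate 1 Scnn1b passed too (adjusted p 0.0416). Sgk1, the kinase that keeps ENaC at the membrane, held 358, 779, 868 and 889 CPM on high and 1103, 978, 973 and 1113 CPM on low salt. The groups did not overlap, but high-salt replicate 1 lay far below its group and the difference did not pass (adjusted p 0.237). Nedd4l, the ubiquitin ligase that removes ENaC from the membrane, had 0.49 ± 0.11 (adjusted p 0.0608), and Usp2, a deubiquitinase, 0.81 ± 0.24 (adjusted p 0.117). Prss8, the protease prostasin that cuts and activates ENaC, had 0.14 ± 0.14 (adjusted p 0.627). None of the 22 genes of distal Na, K and Cl transport passed (median 0.28, 16 positive), and none of 31 potassium channel genes did. In the WNK list 1 of 12 genes rose, Klhl3, which targets WNK kinases for degradation. It stood at 21.5, 25.3, 22.1 and 30.5 CPM on high and 54.1, 44.6, 36.7 and 40.7 CPM on low salt, with no overlap (0.82 ± 0.15, adjusted p 0.0402). Klhl3 passed in 2 of the 8 fits that left out a library, those without high-salt replicate 4 or low-salt replicate 1. Of 12 Na,K-ATPase and FXYD genes 1 fell, the beta-2 subunit Atp1b2 (-0.51 ± 0.10), which passed in none of those 8 fits.

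Corticosteroid-induced genes formed the list with the most members that rose: 8 of 27 rose and none fell, where 1.09% of all genes were higher, and 23 had positive values with a median of 0.44. The list was put together with earlier results of these data known, so its count describes and does not test. Zbtb16, a zinc finger repressor that glucocorticoids induce in many tissues, had 9.41, 10.6, 7.28 and 12.0 CPM on high and 52.9, 59.1, 46.2 and 42.2 CPM on low salt. The lowest low-salt value was over 3 times the highest high-salt value, and the log2 fold change of 2.34 ± 0.16 had the smallest adjusted p of all genes (0.00539). Fkbp5, the co-chaperone that restrains steroid receptors, had 35.5, 40.0, 32.2 and 35.8 CPM against 67.4, 51.6, 47.7 and 64.2 CPM, again without overlap (0.69 ± 0.12). Sult1a1, a sulfotransferase, rose by 1.11 ± 0.21, with replicate 1 at 93.9 CPM above the other low-salt values of 56.0 to 62.0. Fam107a, an actin-binding stress gene, rose by 0.69 ± 0.13, and Errfi1, the feedback inhibitor of the EGF receptor, by 0.52 ± 0.10. The metallothioneins Mt1 (0.61 ± 0.13) and Mt2A (0.57 ± 0.12), which bind zinc and copper, and the growth arrest gene Gadd45a (0.33 ± 0.06) completed the 8, and the diets overlapped for Mt1 and Gadd45a.

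Other corticosteroid targets did not pass. Per1, a clock gene that aldosterone and glucocorticoids induce, had 32.6, 70.3, 52.4 and 54.4 CPM on high and 143, 89.0, 98.1 and 130.4 CPM on low salt without overlap, and missed the threshold (adjusted p 0.0524). Tsc22d3, known as GILZ, had 0.12 ± 0.19 (adjusted p 0.762), and Klf9, a zinc finger factor, 0.44 ± 0.13 (adjusted p 0.109). Dusp1, a phosphatase that dampens stress kinases, lay on the other side at -0.63 ± 0.15 (adjusted p 0.0656). Of 10 genes for corticosteroid receptors and enzymes 1 rose, the progesterone receptor Pgr (1.07 ± 0.22). The mineralocorticoid receptor Nr3c2 had 0.10 ± 0.11 (adjusted p 0.688) and the glucocorticoid receptor Nr3c1 -0.32 ± 0.09 (adjusted p 0.0894). Leaving out a library kept 1 to 3 of the 8 corticosteroid-induced calls, with Zbtb16 alone kept without high-salt replicates 1, 2 or 3 or low-salt replicates 3 or 4.

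**Figure D3:**
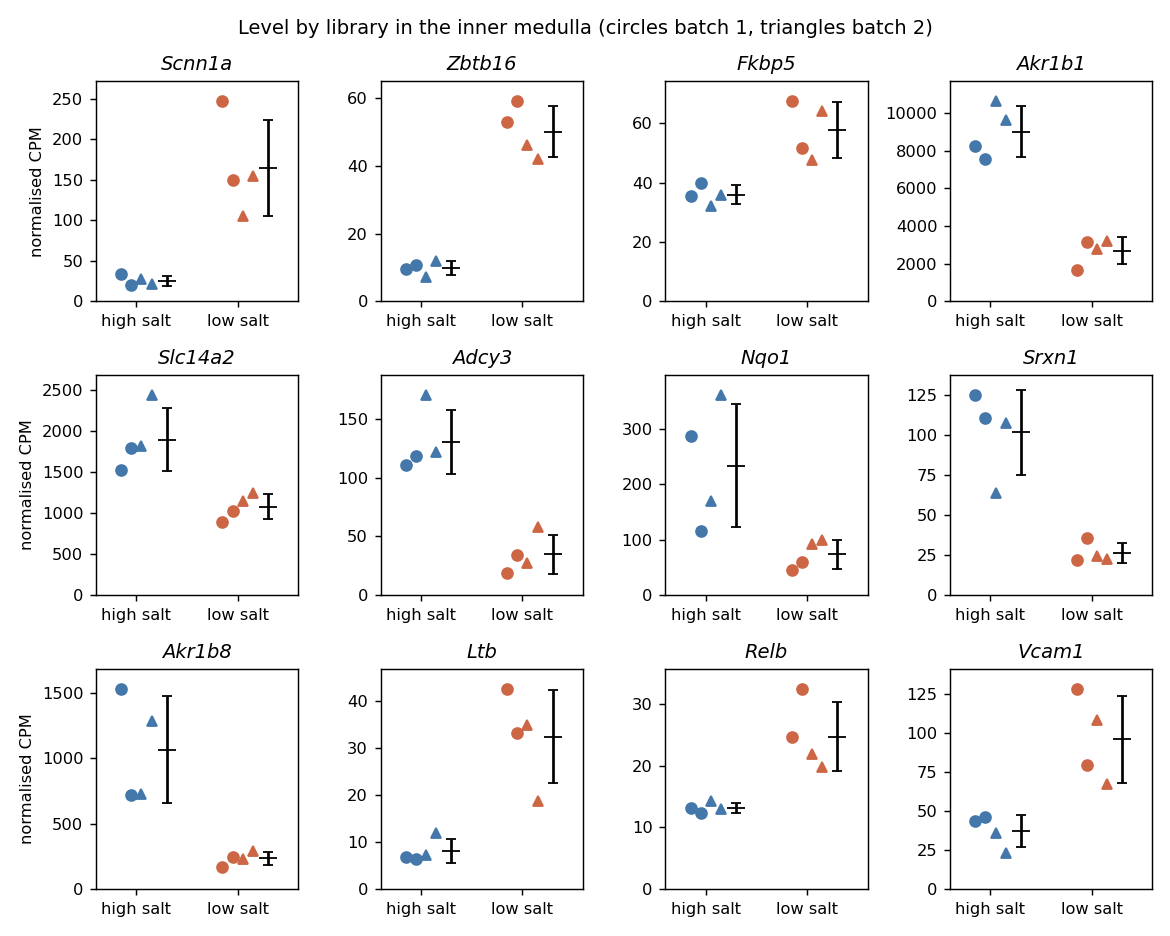
Normalised CPM in each library for 12 genes by diet; circles are batch 1 and triangles batch 2, and the black bar gives the mean and SD of 4 libraries. In all 12 panels the 4 low-salt points lie entirely above (Scnn1a, Zbtb16, Fkbp5, Ltb, Relb, Vcam1) or below (the other 6) the 4 high-salt points. The 12 were picked from the 454 genes past the threshold, of which 423 had no overlap, so this follows from the choice. Over all genes tested, 4.83% lay entirely above and 6.62% entirely below.

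The osmolyte and tonicity genes were split. Of 27 tested, Nfat5 rose and Akr1b1, Hspa4l and Cryab fell (3 lower, where 1.37% of all genes were), and the list's median of -0.01 lay near that of all genes. Nfat5, the transcription factor that drives the response to high tonicity, had 499, 444, 461 and 521 CPM on high and 728, 749.9, 771 and 689 CPM on low salt (0.61 ± 0.08, adjusted p 0.0177). Akr1b1, the aldose reductase that makes sorbitol, had 8250, 7561, 10635 and 9627 CPM against 1657, 3146, 2788 and 3186 CPM. The highest low-salt value was far below the lowest high-salt value, and low-salt replicate 1 was the lowest (-1.74 ± 0.19, adjusted p 0.0163). The factor and a gene it is known to drive went in opposite directions in the same libraries.

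Hspa4l, a chaperone of the HSP110 family that responds to osmotic stress, had 170.0, 257, 419.8 and 235.3 CPM on high and 66.4, 112, 108 and 127 CPM on low salt (-1.37 ± 0.24). Cryab, the small heat shock protein alpha-B-crystallin, had 1123, 1286, 1350 and 1151 CPM against 782, 825, 766 and 827 CPM, 2 tight groups without overlap (-0.62 ± 0.09). Slc6a12, the betaine transporter and another NFAT5 target, stood at 141, 255, 410.0 and 183 CPM against 52.5, 121, 65.1 and 92.5 CPM and did not pass (-1.55 ± 0.37, adjusted p 0.0697), with high-salt replicate 3 far above the rest. Slc5a3, the inositol transporter, had -0.55 ± 0.23 (adjusted p 0.241), and Slc6a6, the taurine transporter, had 0.77 ± 0.18 (adjusted p 0.0662), with a positive sign. Sord, which turns sorbitol into fructose, had 0.46 ± 0.42 (adjusted p 0.583), and Hspa1b, an inducible HSP70, 0.07 ± 0.13 (adjusted p 0.801). Leaving out high-salt replicate 4 or low-salt replicates 1 or 2 kept all 4 calls, leaving out high-salt replicates 2 or 3 kept 1, and leaving out low-salt replicate 3 kept none.

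Genes of urea transport and cyclic AMP signalling also changed. Slc14a2, which encodes the UT-A urea transporters that vasopressin opens, had 1524, 1788, 1819 and 2437 CPM on high and 891, 1020, 1142 and 1244 CPM on low salt (-0.81 ± 0.12, adjusted p 0.0207). The groups did not overlap. Adcy3, an adenylyl cyclase that makes cyclic AMP, fell from 130.3 ± 27.2 to 34.7 ± 16.8 CPM (SD, n = 4), with 111, 118, 171 and 122 CPM on high and 19.2, 34.3, 27.2 and 58.2 CPM on low salt (-1.94 ± 0.27, adjusted p 0.0201). Akap12, a scaffold that anchors protein kinase A near the membrane, went the other way, from 63.3, 90.7, 69.9 and 60.7 CPM to 175, 111, 133 and 108 CPM (0.89 ± 0.17). These 3 were the members that passed among 22 genes of water, urea and vasopressin, whose median was 0.09. Of all genes 1.09% were higher and 1.37% lower. The water channels Aqp2 (-0.29 ± 0.13, adjusted p 0.276), Aqp3 (0.18 ± 0.17, adjusted p 0.601) and Aqp4 (0.32 ± 0.16, adjusted p 0.315) did not pass. Neither did the vasopressin receptor Avpr2 (-0.10 ± 0.09, adjusted p 0.616) or the collecting duct cyclase Adcy6 (0.09 ± 0.10, adjusted p 0.630). Outside the list, Sphkap, a kinase A anchoring protein (-2.40 ± 0.29), fell, and so did Prkar2b, a regulatory subunit of kinase A that was picked after its value was seen (-0.92 ± 0.14). None of the 3 list members passed without low-salt replicate 3 or high-salt replicate 2, and all 3 did without low-salt replicate 2.

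Some genes against oxidants fell. NRF2, encoded by Nfe2l2, drives many of them through a promoter sequence called the antioxidant response element. Promoter windows of 300 bases (250 before to 50 after the annotated start, RefSeq, GRCr8) were searched on both strands for the core of this element, TGACNNNGC or TGAGNNNGC. The windows of Srxn1, Akr1b8 and Me1 are shown since these 3 had the largest decreases among the called genes of the NRF2 and NADPH lists with a match, and the matches are in capitals. In Srxn1 the matches lie at -118 to -110, -17 to -9 and -5 to 3 relative to the start (0), in Akr1b8 at -70 to -62 and in Me1 at -167 to -159.
Srxn1, chr3:161064562-161064861, plus strand: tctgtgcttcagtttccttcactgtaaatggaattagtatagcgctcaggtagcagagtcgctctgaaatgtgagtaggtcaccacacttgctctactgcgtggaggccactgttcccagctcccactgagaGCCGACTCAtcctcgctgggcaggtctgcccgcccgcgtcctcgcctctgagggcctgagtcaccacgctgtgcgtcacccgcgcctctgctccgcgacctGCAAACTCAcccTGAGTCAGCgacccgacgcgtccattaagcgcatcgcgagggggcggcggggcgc
Akr1b8, chr4:63964171-63964470, plus strand: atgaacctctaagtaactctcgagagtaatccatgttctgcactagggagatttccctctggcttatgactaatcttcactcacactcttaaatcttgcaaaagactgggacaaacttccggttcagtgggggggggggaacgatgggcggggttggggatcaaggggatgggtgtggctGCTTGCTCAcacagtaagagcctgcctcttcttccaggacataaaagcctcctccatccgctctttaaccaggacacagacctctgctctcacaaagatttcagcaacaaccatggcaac
Me1, chr8:96540195-96540494, minus strand: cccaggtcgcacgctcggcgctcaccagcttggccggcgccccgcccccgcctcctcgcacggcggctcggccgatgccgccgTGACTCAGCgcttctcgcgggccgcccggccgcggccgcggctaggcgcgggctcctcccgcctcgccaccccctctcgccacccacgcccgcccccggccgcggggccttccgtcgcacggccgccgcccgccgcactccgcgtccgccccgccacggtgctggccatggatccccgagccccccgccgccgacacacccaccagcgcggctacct
Such a match occurs in 27.1% of all 33469 windows in the table, in 29.8% of those of the tested genes, in 31.3% of those of higher genes and in 28.9% of those of lower genes. The window of Abcc4 held 1 match, and those of Nqo1 and Abcc1 held none of these letters.

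Srxn1, sulfiredoxin, which repairs overoxidised peroxiredoxins, had 125, 111, 63.6 and 107 CPM on high and 22.2, 35.5, 24.3 and 22.7 CPM on low salt. The lowest high-salt value, in replicate 3, was still above the highest low-salt value, in replicate 2 (-1.95 ± 0.19, adjusted p 0.0103). Akr1b8, an aldo-keto reductase that clears aldehydes and is close in sequence to Akr1b1, had 1534, 721, 729 and 1286 CPM on high and 167, 248, 226 and 292 CPM on low salt (-2.20 ± 0.30, adjusted p 0.0196). The list of carboxylesterases, aldo-keto reductases and other detoxifying enzymes also holds Akr1b8. Of its 36 tested genes 2 rose (Sult1a1 and Aldh1a3) and 3 fell (Akr1b1, Akr1b8 and Ces2e), against 1.09% and 1.37% of all genes. The list had 18 values of each sign and a median of -0.01. Short reads from near-identical members of the aldo-keto reductase family are shared out by estimation, so the split between them is uncertain. Nqo1, the quinone reductase that is a standard readout of NRF2, had 287, 116, 169.9 and 362 CPM against 44.6, 59.1, 92.8 and 98.7 CPM (-1.71 ± 0.33, adjusted p 0.0430), with a 3-fold range within the high-salt group. The efflux pumps Abcc1 (-0.49 ± 0.10) and Abcc4 (-0.67 ± 0.13), which export glutathione conjugates and prostaglandins, fell less, and the diets overlapped for both.

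Among 46 NRF2 and glutathione genes these 5 fell and none rose, 32 had negative values and the median was -0.23, against 1.37% lower genes and a median of -0.0035 over all genes. Hmox1, heme oxygenase (-1.25 ± 0.34, adjusted p 0.0922), and Txnrd1, thioredoxin reductase (-0.53 ± 0.17, adjusted p 0.137), were lower without passing. Gclc, which starts glutathione synthesis, had 449, 526, 205 and 262 CPM on high and 149.7, 892, 629 and 487 CPM on low salt, a wide spread within the low-salt group from replicate 1 to replicate 2 (0.68 ± 0.49, adjusted p 0.488). Without low-salt replicate 1 Gclc passed as a higher gene (log2 fold change 1.105, adjusted p 0.0273). Nfe2l2 itself had 0.45 ± 0.14 (adjusted p 0.135), and Keap1, its inhibitor, -0.11 ± 0.05 (adjusted p 0.263). Of 12 genes that supply NADPH, Me1, the malic enzyme, fell from 447, 573, 415 and 471 CPM to 172, 192, 207 and 254 CPM (-1.22 ± 0.14, adjusted p 0.0163). Pgd, an enzyme of the pentose phosphate pathway, was lower without passing (-0.64 ± 0.14, adjusted p 0.0573). Leaving out a library kept 0 to 3 of the 5 calls: none without low-salt replicate 3, 3 without high-salt replicate 4 or low-salt replicate 2, and 2 in the others. Me1 kept its call in every fit but that without low-salt replicate 3 (adjusted p 0.0533).

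Several genes of the NF-kB and lymphotoxin pathway rose. NF-kB factors are held in the cytoplasm by inhibitors such as that encoded by Nfkbie, and RelB acts in the branch that lymphotoxin and CD40 receptors switch on. Of 39 genes tested, 7 rose and none fell, where 1.09% of all genes were higher, and the median was 0.18. The promoter windows of Ltb, Vcam1 and Nfkbie are printed because each held a match to the 10-base NF-kB consensus, in capitals, at -25 to -16, -93 to -84 and -164 to -155. The stretch in Vcam1 matches on both strands.
Ltb, chr20:3634005-3634304, minus strand: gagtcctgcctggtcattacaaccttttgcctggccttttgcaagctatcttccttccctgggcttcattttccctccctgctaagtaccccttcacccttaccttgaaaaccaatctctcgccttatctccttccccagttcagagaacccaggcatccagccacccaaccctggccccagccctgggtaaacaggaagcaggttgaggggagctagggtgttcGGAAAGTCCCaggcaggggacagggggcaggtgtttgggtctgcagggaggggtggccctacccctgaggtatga
Vcam1, chr2:206742734-206743033, minus strand: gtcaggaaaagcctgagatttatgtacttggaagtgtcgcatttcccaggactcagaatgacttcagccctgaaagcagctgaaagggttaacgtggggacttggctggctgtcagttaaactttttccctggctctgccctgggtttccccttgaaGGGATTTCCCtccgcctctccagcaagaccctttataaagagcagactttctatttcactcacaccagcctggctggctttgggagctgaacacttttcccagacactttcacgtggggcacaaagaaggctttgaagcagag
Nfkbie, chr9:22947823-22948122, minus strand: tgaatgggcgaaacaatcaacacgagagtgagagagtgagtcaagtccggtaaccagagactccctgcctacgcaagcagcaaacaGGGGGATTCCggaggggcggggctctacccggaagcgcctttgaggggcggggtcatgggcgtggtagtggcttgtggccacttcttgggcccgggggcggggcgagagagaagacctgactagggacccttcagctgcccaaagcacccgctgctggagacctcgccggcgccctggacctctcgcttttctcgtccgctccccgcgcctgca
The consensus occurs in 4.18% of all windows and 4.89% of those of tested genes, in 7.69% of the windows of higher genes (15 of 195) and in 4.13% of those of lower genes (9 of 218). Of the 7 genes that rose, Relb, Tnfrsf14, Birc3 and Cd40 had no entry in the table of windows. The windows were also searched for the glucocorticoid response element and the tonicity element. For the first, Fam107a held a match, Fkbp5, Errfi1, Mt1, Mt2A, Gadd45a and Sult1a1 held none, and Zbtb16 had no window. For the second, Hspa4l held none, and Akr1b1 and Cryab had no window. Among windows of tested genes, 0.359% held the first element and 4.16% the second.

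Ltb, lymphotoxin beta, a membrane ligand of the TNF family, had 6.81, 6.32, 7.22 and 11.9 CPM on high and 42.7, 33.3, 34.9 and 18.8 CPM on low salt. High-salt replicate 4 was the highest of its group and low-salt replicate 4 the lowest of its own, and the groups did not overlap (2.01 ± 0.30, adjusted p 0.0225). Among the receptors, Tnfrsf14, known as HVEM, had 6.38, 5.06, 4.74 and 6.00 CPM against 16.2, 17.8, 12.4 and 9.95 CPM (1.32 ± 0.17, adjusted p 0.0177). Cd40, the receptor of T cell help, had 3.70, 2.99, 2.04 and 2.21 CPM against 7.14, 10.2, 3.51 and 3.50 CPM (1.06 ± 0.20), low values that overlapped between the diets and separated only within each batch. Ltbr, the receptor of lymphotoxin, had 0.06 ± 0.07 (adjusted p 0.673).

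Of the factors, Relb had 13.2, 12.4, 14.2 and 12.9 CPM on high and 24.7, 32.5, 21.9 and 19.8 CPM on low salt, with the high-salt values within 2 CPM of each other (0.89 ± 0.14, adjusted p 0.0289). Nfkb2, whose p52 product pairs with RelB, had 42.9, 47.4, 50.2 and 48.1 CPM against 57.8, 76.0, 55.8 and 53.7 CPM, no overlap but no call (0.36 ± 0.11, adjusted p 0.136). Nfkb1 (-0.06 ± 0.07), Rela (0.06 ± 0.08) and Map3k14, the kinase NIK (-0.02 ± 0.13), stood near 0 and did not pass (adjusted p 0.690, 0.697 and 0.960). Nfkbie rose by 0.52 ± 0.11, while Nfkbia, another inhibitor, had 0.57 ± 0.17 (adjusted p 0.111).

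Known targets of the pathway were among the 7. Birc3, the inhibitor of apoptosis cIAP2, had 9.79, 9.21, 15.8 and 9.55 CPM on high and 27.6, 33.6, 23.8 and 25.6 CPM on low salt (1.33 ± 0.20, adjusted p 0.0254), and high-salt replicate 3 stood above the rest of its group. Vcam1, an adhesion molecule for leukocytes, had 43.3, 46.2, 36.0 and 23.2 CPM against 128, 79.5, 108 and 67.1 CPM (1.39 ± 0.22, adjusted p 0.0280). The chemokine genes did not pass: Ccl2 had -2.50 ± 0.59 (adjusted p 0.0660) and Ccl20 3.66 ± 0.81 (adjusted p 0.0567), far apart in sign. Outside the list, and chosen after their values were seen, the alarmin Il33 (1.05 ± 0.15) rose, while the receptor Tnfrsf11a, known as RANK (-0.52 ± 0.11), and the cytokine Il15 (-0.68 ± 0.09) fell. Edar, a TNF family receptor of the rule's large folds, rose by 1.47 ± 0.27. Dropping high-salt replicate 1 or 2 or low-salt replicate 3 left none of the 7 calls, and leaving out high-salt replicate 4 left 6.

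The summed levels of leukocyte markers overlapped between the diets. Lymphocyte markers summed to 28.4 to 50.9 CPM on high and 30.5 to 47.5 CPM on low salt (exact permutation test, two-sided, p 0.914), and 12 of 17 lay under 1 CPM. Macrophage and dendritic cell markers summed to 109 to 217 CPM and 126 to 160.3 CPM (exact permutation p 0.886), and none of the 13 lymphocyte and 12 macrophage and dendritic cell markers tested passed. The sum of neutrophil and mast cell markers was 49.6 ± 2.71 CPM on high and 65.4 ± 20.8 CPM on low salt (SD, n = 4, exact permutation p 0.114). Of these markers 14 of 15 lay under 1 CPM. Nearly all of the sum was the receptor gene Kit, at 48.4 ± 1.78 and 62.9 ± 20.8 CPM after TMM normalisation. Of 30 genes of antigen presentation 1 rose, the peptide transporter Tap2 (0.53 ± 0.10), and of 32 interferon-induced genes 1 fell, Ifi44 (-0.47 ± 0.07).

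Subunits of the 26S proteasome, which degrades ubiquitin-tagged proteins, included several that fell by small amounts. Of 38 genes, 6 fell and none rose (1.37% of all genes were lower), and 29 were negative with a median of -0.08. In 14 of the 38 all low-salt values lay below all high-salt values, where 6.62% of all genes did. All 6 encode parts of the 19S regulatory particle, the lid and base that bind and unfold substrates. Psmd1, a scaffold of its base, had 160.3, 166, 169 and 168 CPM on high and 119, 134, 133 and 136 CPM on low salt (-0.35 ± 0.05, adjusted p 0.0269). Psmd14, the deubiquitinase of the lid, had -0.29 ± 0.06 and the ATPase Psmc5 had -0.25 ± 0.05. Psmd7 (-0.26 ± 0.05), Psmd13 (-0.26 ± 0.04) and the ubiquitin receptor Adrm1 (-0.29 ± 0.06) changed alike. The 19S chaperones Psmd5 (-0.48 ± 0.07) and Psmd10 (-0.57 ± 0.09), outside the list and chosen after their values were seen, also fell. The catalytic subunit Psmb5 had -0.16 ± 0.04 (adjusted p 0.0922), and Nfe2l1, the factor that restores proteasome genes, 0.02 ± 0.07 (adjusted p 0.934). Of the 6 calls, 1 was kept with no filter and 1 with no batch term, 3 with limma-voom, 3 with DESeq2 size factors and 4 with upper quartile scaling or the gene span offset. Without high-salt replicates 1, 2 or 3 or low-salt replicates 3 or 4 none was kept, and without each of the other libraries only Psmd1.

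Of 32 heat shock genes Hspa4l and Cryab fell (1.37% of all genes were lower), 26 were negative and the median was -0.11. Hsph1, another HSP110 chaperone, had -0.87 ± 0.24 (adjusted p 0.0932) and Hsp90aa1 -0.34 ± 0.09 (adjusted p 0.0855). None of 35 genes of the unfolded protein and amino acid responses passed (median -0.15). In glycolysis and hypoxia, 30 of 35 genes were negative with a median of -0.20, and Eno1, enolase, was the member that fell. Eno1 had 1697, 1967, 1549 and 1529 CPM on high and 1066, 1305, 1170 and 1202 CPM on low salt (-0.50 ± 0.10), and it passed in none of the 8 fits that left out a library and not with DESeq2 size factors (0 of 1). Vegfa had -0.03 ± 0.14 (adjusted p 0.931) and Hif1a -0.05 ± 0.10 (adjusted p 0.832).

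Both a receptor and an enzyme of platelet-activating factor, a lipid mediator made in the medulla, fell. Ptafr, its receptor, had 9.49, 8.995, 10.9 and 15.1 CPM on high and 2.99, 3.06, 4.68 and 3.87 CPM on low salt (-1.61 ± 0.15, adjusted p 0.0103). Pla2g7, the secreted phospholipase that inactivates it, had 50.5, 16.7, 27.6 and 25.4 CPM against 4.27, 5.29, 3.51 and 8.16 CPM, with high-salt replicate 1 the highest (-2.50 ± 0.39, adjusted p 0.0273). With Abcc4 they were 3 lower genes of 29 in the prostaglandin and platelet-activating factor list, where 1.37% of all genes were lower. Ptgds, a prostaglandin D synthase, was the 1 that rose (0.47 ± 0.10). The cyclooxygenases Ptgs1 (-0.30 ± 0.10, adjusted p 0.156) and Ptgs2 (0.27 ± 0.40, adjusted p 0.751) did not pass, and Ptgs2 changed sign without low-salt replicate 2. Neither did the receptors Ptger1 to Ptger4, with log2 values of 0.03, -0.13, -0.25 and -0.20. Ptafr passed in 7 of the 8 fits that left out a library and missed without low-salt replicate 3 (adjusted p 0.0501), and Pla2g7 passed in 4.

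Single members of developmental signalling pathways changed, where 1.09% of all genes were higher and 1.37% lower. Bmp7, a bone morphogenetic protein that the collecting duct makes, had 80.6, 86.1, 91.9 and 93.8 CPM on high and 138, 128, 145 and 131 CPM on low salt (0.62 ± 0.06, adjusted p 0.0103), and Bmpr1b, a receptor of this family, rose by 0.75 ± 0.12. They were the 2 that passed among 35 BMP and TGF-beta genes. Notch1 had 33.0, 29.8, 34.1 and 35.1 CPM against 52.2, 49.5, 47.3 and 54.2 CPM (0.63 ± 0.07, adjusted p 0.0163), alone among 25 Notch genes, and its target Hes1 had -0.23 ± 0.17 (adjusted p 0.493). Of 40 Wnt genes the co-receptor Lrp5 rose (0.52 ± 0.08) and the secreted inhibitor Wif1 fell (-1.29 ± 0.21), while the target Axin2 had -0.15 ± 0.09 (adjusted p 0.397). Btc, betacellulin, a ligand of the EGF receptor, rose by 0.77 ± 0.12, 1 of 2 higher genes with Errfi1 among 20 of that list. Tjp3, the junction protein ZO-3, rose by 0.46 ± 0.09 as the sole one of 24 claudin and tight junction genes. Hdac4 (0.44 ± 0.08), a histone deacetylase, and Dnmt3a (0.49 ± 0.09), a DNA methyltransferase, rose among 24 genes of Polycomb and chromatin. Without low-salt replicate 3 none of these genes passed, and without high-salt replicates 2 or 3 only Bmp7 did.

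Genes with large folds came from many families. Trpv6, an epithelial Ca channel, had 5.26, 4.77, 4.17 and 7.28 CPM on high and 19.3, 15.4, 20.03 and 11.8 CPM on low salt (1.63 ± 0.23), and Slc5a7, the choline transporter, had 1.72, 1.34, 1.24 and 1.19 CPM against 5.15, 4.53, 3.60 and 3.23 CPM (1.58 ± 0.17, adjusted p 0.0143). Mt3, another metallothionein, rose by 1.75 ± 0.29, with a wide low-salt range of 9.07 to 29.4 CPM. Lrrn2, a leucine-rich repeat membrane protein, rose by 2.01 ± 0.29, and Myo3b, an unconventional myosin, had 25.6, 20.3, 25.6 and 28.9 CPM against 49.0, 49.6, 49.6 and 54.7 CPM. Car2, the cytosolic carbonic anhydrase of acid-secreting cells, rose by 0.88 ± 0.16, beside an intercalated cell marker sum of 1719 to 2571 CPM on high and 1966 to 4126 CPM on low salt (exact permutation p 0.257), and the part of that sum in the result was not tested. Other genes with large gains in CPM were Aldh1a3, which makes retinoic acid (0.57 ± 0.12), Qsox1, a sulfhydryl oxidase (0.58 ± 0.11), Snn (1.02 ± 0.18), Sdc4, a syndecan (0.47 ± 0.09), and Mgll, monoacylglycerol lipase (0.64 ± 0.11).

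Among the lower genes, Ces2e, a carboxylesterase, had 4.29, 2.12, 4.12 and 1.104 CPM on high and 0.0915, 0.0956, 0.284 and 0.335 CPM on low salt. The low-salt values rest on few counts, and the fitted log2 fold change of -3.87 ± 0.60 depends on them. Shisa2, an inhibitor of receptor maturation, had 3.17, 3.28, 1.45 and 2.09 CPM against 0.366, 0.542, 0.348 and 0.274 CPM (-2.67 ± 0.24, adjusted p 0.0103). Pgf, placental growth factor, had 50.2, 50.3, 30.9 and 40.3 CPM against 14.2, 12.2, 9.60 and 15.95 CPM (-1.70 ± 0.18, adjusted p 0.0132). Emcn, an endothelial sialomucin, fell (-0.75 ± 0.12) as the 1 called gene of 20 endothelial markers. Their summed level was 2316 to 3290 CPM on high and 1834 to 2636 CPM on low salt (exact permutation p 0.114). A large part of it was Aqp1, also on the thin limb list, with means of 1357 and 1089 CPM. Of 32 carriers Slc1a4, a neutral amino acid carrier, fell (-1.50 ± 0.31), where 1.37% of all genes were lower. Slc25a4, the ADP/ATP carrier of mitochondria (0.29 ± 0.05), and Slc44a4, a choline-like carrier (0.35 ± 0.07), rose, where 1.09% of all genes were higher. Rnf183, a ubiquitin ligase of the inner medulla that tonicity induces, had 271, 248, 353 and 396 CPM against 131, 144, 218 and 231.8 CPM (-0.83 ± 0.07, adjusted p 0.0103). Slc4a11, a medullary transporter, and the connexins Gja4 and Gjb5 were picked after their values were seen and fell (-0.88 ± 0.16, -1.11 ± 0.22 and -0.69 ± 0.09).

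Many pathways of this tissue gave no gene past the threshold. None passed among 46 collagen and matrix genes (median -0.03), 30 of oxidative phosphorylation (0.06), 32 ribosomal proteins (0.09), 26 of fatty acid oxidation (0.02), 26 of cholesterol and lipid synthesis (0.21) or 19 of the circadian clock (-0.03). The same held for 19 p53 and apoptosis genes (0.06), 17 immediate early genes (0.06), 15 endothelin and nitric oxide genes (0.01), 12 renin-angiotensin and kallikrein genes (0.49) and 6 natriuretic peptide and dopamine genes (-0.09). Of 32 cell cycle genes Tyms, thymidylate synthase, rose (0.49 ± 0.09) while 25 were negative (median -0.13). In the injury and repair list of 19 genes, Vcam1 and the stem cell antigen Prom1 (0.57 ± 0.10) rose, and Anxa2, an annexin, fell (-0.48 ± 0.10). Of all genes 1.09% were higher and 1.37% lower.

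**Figure D4:**
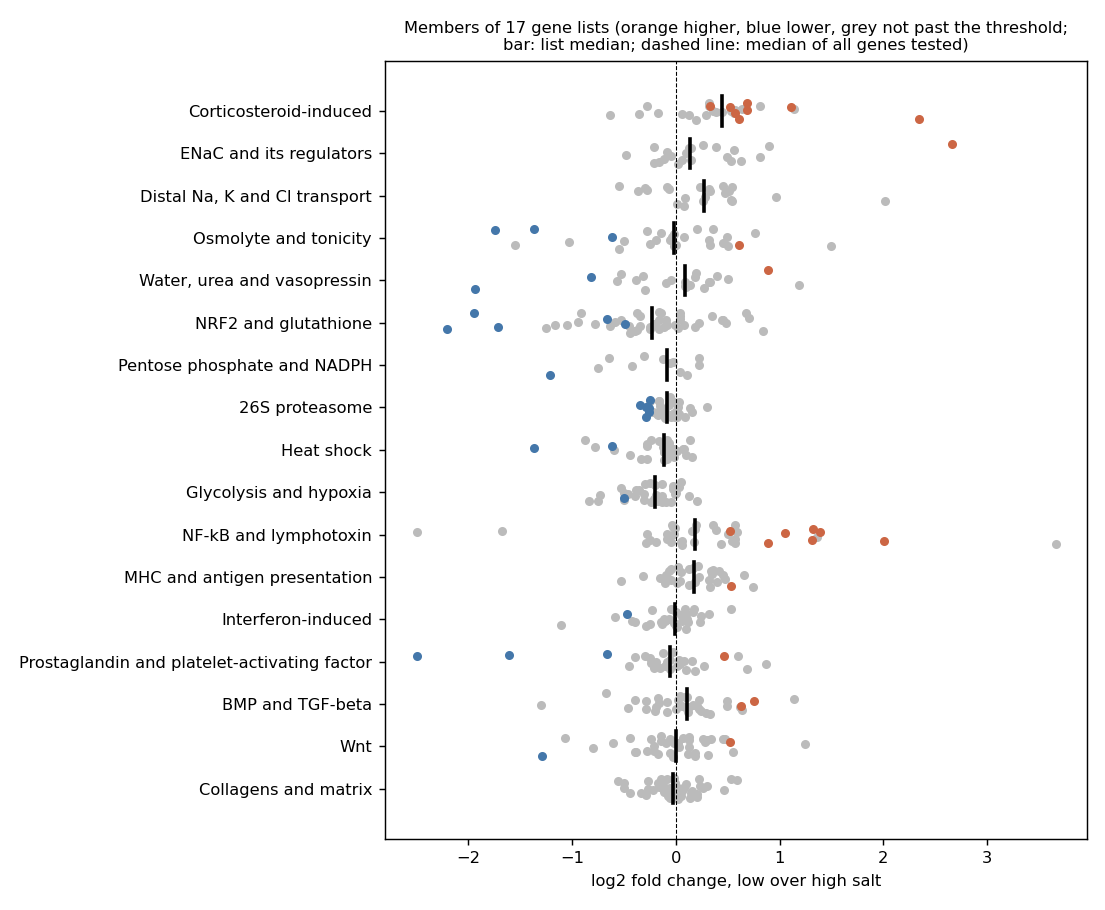
Each point is the log2 fold change, low over high salt, of 1 tested member of 17 gene lists; orange points were higher and blue points lower at an adjusted p under 0.05, black bars give list medians and the dashed line the median of all genes. Corticosteroid-induced genes lie mostly right of the line (median 0.44) and NRF2 and glutathione genes mostly left of it (median -0.23).

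Cell type markers show how far the dissected tissue differed. Inner medullary collecting duct markers summed to 20544 to 24149 CPM on high and 12336 to 14318 CPM on low salt (exact permutation test, two-sided, p 0.0286, the smallest that 4 against 4 allows). These sums include Akr1b1 and Slc14a2, and without these 2 genes the sums were 11239 to 11780 and 8097 to 10567 CPM (exact permutation p 0.0286). Thin limb markers without the same 2 genes summed to 3467 to 4212 and 2616 to 3393 CPM (exact permutation p 0.0286). With Cryab, the other called member of that list, also taken out, a choice made after seeing the data, they summed to 2340 to 2872 and 1856 to 2561 CPM and overlapped (exact permutation p 0.0857). Principal cell markers summed to 12245 to 13857 and 11047 to 15551 CPM (exact permutation p 0.886). Distal convoluted tubule markers summed to 613 to 907 and 919 to 1238 CPM (exact permutation p 0.0286). The largest part of the latter was Egf, also on the thick ascending limb list, with means of 311 and 476 CPM that overlapped between the diets. Slc12a3, of the same tubule list, had 6.53 and 7.70 CPM and overlapped too. Of its 8 tested members 6 were positive and 2 negative, and Klhl3 alone passed. The permutation p-values of the sums take no account of batch and are not adjusted over the 18 marker lists and the 3 reduced sums. At a smallest possible p of 0.0286 none could pass such an adjustment alone.

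Markers of the neighbouring cortex and outer medulla varied within the groups. Proximal tubule markers summed to 1116, 1669, 274 and 370 CPM on high salt and to 430.1, 2593, 1715 and 1159 CPM on low salt (exact permutation p 0.229), with 17 of 18 tested markers positive, a median of 0.83 and none past the threshold. Thick ascending limb markers summed to 2053 to 3483 and 2351 to 4261 CPM (exact permutation p 0.571). Urothelium markers summed to 409 to 1154 and 446 to 562 CPM (exact permutation p 0.486), with high-salt replicate 1 the highest. Erythroid markers summed to 1553 to 5507 and 3120 to 6942 CPM (exact permutation p 0.457). The erythroid list holds Slc4a1, also an intercalated cell marker, with means of 956 and 1119 CPM. The part of all these markers in the gene results was not tested. Among these lists every marker in the table had counts in at least 1 library except the embryonic globin Hbe1. The first principal component (29.9% of variance over 15268 genes) set high-salt replicates 3 and 4 apart from the 6 other libraries, and the second (20.9%) had high-salt replicates 1 and 2 on 1 side and low-salt replicate 1 farthest on the other.

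Length of the gene moved with the result. The median RefSeq gene span was 47161 bases for the higher genes, 16326 bases for the lower genes and 20517 bases for all tested genes. Over 13745 protein-coding genes at 1 CPM or more, divided into 5 equal classes by span, the counts of higher genes from the shortest to the longest class were 15, 22, 25, 52 and 73, and those of lower genes 63, 62, 42, 34 and 41. The median log2 fold change went from -0.05 to 0.04. In single libraries the longest class minus the shortest class stood at -0.13, -0.04, 0.04 and -0.06 (log2) on high salt and at 0.00, 0.03, 0.07 and 0.07 on low salt, an overlap with an exact permutation p of 0.0857. A fit with an offset for span, added after seeing the data, gave 98 higher and 212 lower genes in place of 201 and 253, with 74 of the 99 named calls kept, and 3 of the 8 corticosteroid-induced, all 5 NRF2 and 6 of the 7 NF-kB calls. The part of span in the counts was otherwise not tested.

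The diet response of the inner medulla differed from that of the heart ventricle for 161 of 19408 genes (0.830%, edgeR interaction test over 16 libraries, Benjamini-Hochberg adjusted p under 0.05). The count was 75, 50 or 48 when replicate 1, 2 or 3 of the high-salt medulla was dropped, and 53 or 83 when replicate 3 or 4 of the low-salt medulla was. In the heart alone 8 of 15473 genes passed, and the labels do not say whether both tissues came from the same rats. Zbtb16 had 2.34 ± 0.16 in the medulla and -0.16 ± 0.25 in the heart, a difference of 2.51 ± 0.33 (adjusted p 0.0103). Akr1b1 had -1.74 ± 0.19 and -0.02 ± 0.08, a difference of -1.72 ± 0.21 (adjusted p 0.0103). Nfat5 (0.70 ± 0.11), Me1 (-1.30 ± 0.18), Srxn1 (-2.03 ± 0.33), Nqo1 (-1.92 ± 0.39), Ltb (2.185 ± 0.44), Relb (1.07 ± 0.20) and Tnfrsf14 (1.98 ± 0.36) differed too. For Birc3 the difference of 1.64 ± 0.35 had an adjusted p of 0.0501, and for Adcy3 that of -1.86 ± 0.41 one of 0.0536, so neither passed. Per1 had positive values in both tissues, 1.14 ± 0.24 in medulla and 1.52 ± 0.36 in heart, and the difference of -0.38 ± 0.48 did not pass (adjusted p 0.787). Slc6a6 did not pass in the medulla alone (adjusted p 0.0662) but differed between the tissues by 1.40 ± 0.26 (adjusted p 0.0332).

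**Figure D5:**
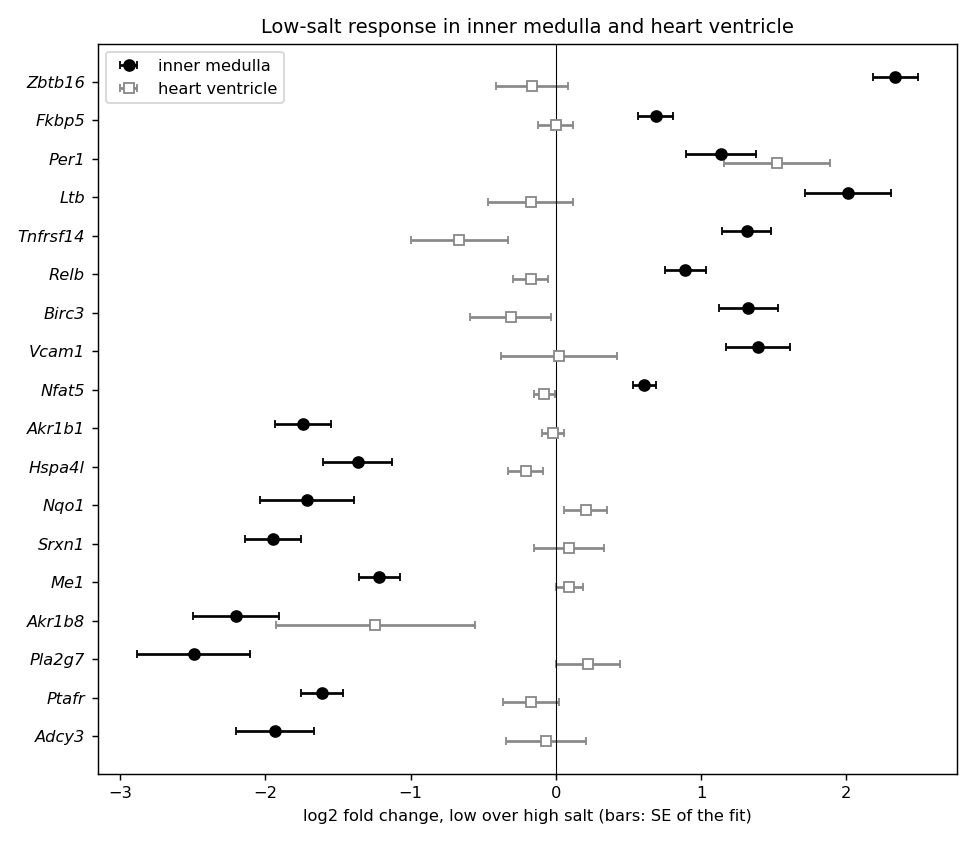
Log2 fold change, low over high salt, with the SE of the fit (bars) in inner medulla (black circles) and heart ventricle (open squares) for 18 genes. Most heart values lie near 0, from -1.24 for Akr1b8 to 1.52 for Per1, while the medulla values run from -2.50 for Pla2g7 to 2.34 for Zbtb16. The genes were picked from those the text names, and all but Per1 were past the threshold in the medulla. Larger values in the medulla than in the heart therefore follow in part from the choice.

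Against the response of the same tissue to infused aldosterone on the 0.4% Na diet, 10 of 18938 genes differed (0.0528%, same kind of edgeR test). Dropping replicate 1, 2, 3 or 4 of the high-salt group changed this count to 0, 0, 4 or 67, and dropping those of the low-salt group to 0, 3, 0 or 24. The 2 experiments differ in the Xist and Y-linked pattern given above, which cannot be told apart from the difference between the treatments. Of the genes named here Shisa2 (difference -2.43 ± 0.33, adjusted p 0.0292), Srxn1 (-2.30 ± 0.31, adjusted p 0.0292) and Gmcl1 (0.86 ± 0.13, adjusted p 0.0327) differed. Gmcl1, a BTB-domain gene, had 67.5, 65.2, 62.7 and 70.03 CPM on high and 138, 119, 114 and 102 CPM on low salt. Srxn1 had -1.95 ± 0.19 on low salt and 0.38 ± 0.21 with aldosterone. Scnn1a had 2.66 ± 0.25 on low salt and 1.26 ± 0.25 with aldosterone, a difference of 1.42 ± 0.37 that did not pass (adjusted p 0.111). Zbtb16 had 2.34 ± 0.16 and -0.05 ± 0.35, and the difference of 2.41 ± 0.43 did not pass either (adjusted p 0.0590). Akr1b1 (-0.48 ± 0.21 with aldosterone), Ltb (0.35 ± 0.27), Nqo1 (-0.25 ± 0.21) and Nfat5 (0.01 ± 0.13) gave differences with adjusted p-values of 0.0917, 0.106, 0.146 and 0.106.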

How the data were processed

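Total RNA of the papilla was sequenced as poly(A)-selected, stranded libraries in single reads of 50 bases, per the labels' protocols. Reads were converted with bcl2fastq 2.19, trimmed with Trimmomatic and quantified with Salmon, per the submitters' processing notes; its reference and settings are named in no source used here. The deposited values are estimated counts per gene, 1 table per experiment, which were rounded to whole numbers. All 36856 symbols matched the RefSeq table (GRCr8).

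Genes were filtered with filterByExpr (minimum count 10), scaled by TMM and tested with the edgeR quasi-likelihood test (edgeR 4.0.16, R 4.3.3) with batch as a term and Benjamini-Hochberg adjustment over all genes tested. Log2 fold changes are low over high salt with the SE of the fit. CPM use TMM-scaled totals, except those of Xist, the Y-linked genes and the marker sums, which use plain totals. Gene lengths were not used, so levels are not compared between genes. The precision is set by 4 libraries per diet. The labels do not say whether the 4 samples of a group came from separate rats, so p-values measure the spread between these samples. Interactions were fitted over 16 libraries, and single values were tested by exact two-sided permutation. The procedure was also run on simulated counts. These were drawn without a batch effect or an outlying library, so that run cannot vouch for the calls given here.

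Genes were named by rule: up to 15 per direction by fold at 1 CPM or more, the 15 smallest adjusted p-values, up to 10 per direction by CPM difference, every list member past the threshold, and a set of transport, osmolyte and hormone genes whatever their p. Members, 40 pathway lists and 18 marker lists were chosen with earlier results of these data known. DESeq2 1.42.0, limma 3.58.1, other scalings and filters, batches apart and each library left out were tried as alternatives.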

Additional observations from a re-analysis of the deposited data

Results flagged for a closer look

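Among 276 groups of 4 values examined, 13 held 1 library far from the other 3. This is close to the share of about 1 in 20 that chance gives. Low-salt replicate 1 stood apart for 6 genes, Dmrtc1b at 4.42 CPM, Atp2a1 at 0.335 CPM, Snn at 628 CPM, Sult1a1 at 93.9 CPM and the proteasome subunits Psmd1 at 119 CPM and Adrm1 at 97.6 CPM. High-salt replicate 3 stood apart for Htr2a (9.92 CPM), Clec2g (174 CPM) and Birc3 (15.8 CPM), and high-salt replicate 4 for Ltb (11.9 CPM, against 6.32 to 7.22 CPM in the others). Low-salt replicate 2 was high for Srxn1 (35.5 CPM) and for the adipocyte marker sum (205.6 CPM, against 94.8 to 113 CPM), and low-salt replicate 4 for Myo3b (54.7 CPM).

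The response to the diet differed between inner medulla and heart for 24 of the 115 named genes (edgeR interaction test, Benjamini-Hochberg adjusted p under 0.05). Of all 19408 genes 0.830% did. Since 99 of the 115 were past the threshold in these same medulla libraries, the count follows in part from the choice and tests nothing. The difference, medulla minus heart in log2 units, was positive for Scnn1a (3.55), Zbtb16 (2.51), Ltb (2.185), Tnfrsf14 (1.98), Cd40 (1.49), Slc6a6 (1.40), Relb (1.07), Akap12 (1.07), Gmcl1 (1.02), Notch1 (0.87), Tap2 (0.83), Nfat5 (0.70), Lrp5 (0.54), Epb41l5 (0.50) and Nt5dc3 (0.47). It was negative for Pla2g7 (-2.71), Sphkap (-2.10), Srxn1 (-2.03), Nqo1 (-1.92), Akr1b1 (-1.72), Ptafr (-1.43), Me1 (-1.30), Rnf183 (-1.27) and Psmc5 (-0.44). For Scnn1a and Rnf183 the difference exceeds the medulla value (2.66 and -0.83). Their heart values had the other sign and did not pass, at -0.95 ± 0.49 (edgeR, adjusted p 0.537) and 0.44 ± 0.27 (adjusted p 0.602). Against infused aldosterone, 3 of the same 115 genes differed, Shisa2 by -2.43, Srxn1 by -2.30 and Gmcl1 by 0.86. Of all 18938 genes 0.0528% did.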

How the results depend on the processing

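All values below are counts of genes at an adjusted p under 0.05, higher and lower on low salt, against 201 and 253. The DESeq2 Wald test gave 777 and 829, the fit with no batch term 80 and 85, batch 1 alone 0 and 0, batch 2 alone 204 and 36, and the gene span offset, chosen after seeing the data, 98 and 212. Leaving out 1 library gave 2 to 295 higher and 0 to 171 lower genes. With DESeq2 size factors, upper quartile scaling, limma-voom, no filter, and 1 CPM required in 4 libraries, both counts stayed within 1.5 times. The kidney minus heart count of 161 became 826 with DESeq2 and 48 to 194 when a library was left out. The kidney minus aldosterone count of 10 became 637 with DESeq2, 52 with no filter and 0 to 67 when a library was left out.

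Same-numbered libraries of the diets correlated at -0.07, 0.30, -0.06 and -0.04 in their deviations, and whether they were paired was not tested. With the replicate block the counts were 30 and 22, and the interaction counts 16 and 0; low-salt replicate 2 alone correlated best with its own number. The log2 fold change of Nr3c2 ran from -0.0075 (without low-salt replicate 1) to 0.18 when a library was left out, and that of Ptgs2 from -0.26 (without low-salt replicate 2) to 0.52. All 99 named called genes passed in DESeq2, 87 in limma-voom, 90 with DESeq2 size factors, 94 with upper quartile scaling, 83 with no filter, 48 with no batch term, 23 with the replicate block, 22 in batch 2 alone and 0 in batch 1 alone. The cause of these shifts was not tested. The number of libraries, 4 per diet, limits the precision.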
